A study of Mus musculus with 16 samples.

Results

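Fatty acid synthesis and desaturation was followed through 10 genes: Srebf1, Fasn, Acaca, Acacb, Acly, Scd1, Scd2, Elovl6, Me1 and Thrsp. They were chosen by name, and all 10 were found among the 24354 gene rows of each of the study's 2 expression tables, 1 for muscle at rest and 1 for muscle after running. Of the 10, 9 were tested in each table, and Elovl6, listed at 0.503 FPKM (fragments per kilobase of transcript, scaled to the number of mapped fragments) or less, had a deposited p of 1 in both and was not tested. The data were RNA-seq of quadriceps, a thigh muscle, from C57BL/6 males aged 4 months on normal chow. The 4 groups of 3 libraries each were HDAC3-KO muscle at rest, WT muscle at rest, HDAC3-KO muscle after running and WT muscle after running. Running was on a treadmill in 3 bouts of 1 h at 10 m/min, 1 h apart, and tissue was taken 2 h after the last bout. HDAC3 is a histone deacetylase of nuclear receptor corepressor complexes. The labels give the knockout by name alone, with no Cre driver or deleted exon, and do not say which cells of the muscle lost the gene. They do not say either that the libraries of a group came from separate animals, so p-values measure the spread between these libraries, which may be technical.

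In the textbook pathway, citrate leaves the mitochondrion and ATP citrate lyase (Acly) splits it into cytosolic acetyl-CoA. Acetyl-CoA carboxylase (Acaca, and its mitochondria-associated paralog Acacb) makes malonyl-CoA, from which fatty acid synthase (Fasn) builds palmitate. Elovl6 lengthens palmitate, and the stearoyl-CoA desaturases Scd1 and Scd2 place the first double bond. Cytosolic malic enzyme (Me1) supplies NADPH, the reductant of the pathway. SREBP-1, the product of Srebf1, switches on many of these genes, and Thrsp, also called Spot 14, is a thyroid-hormone-responsive nuclear protein of lipogenic tissues. In muscle, malonyl-CoA is also known as the inhibitor of carnitine palmitoyltransferase, the step that admits fatty acids to mitochondria, a role attached mainly to Acacb.

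In the libraries labelled HDAC3-KO, Hdac3 fell to 5.51 to 8.16 FPKM at rest, against 23.7 to 33.3 FPKM in WT libraries, and to 4.13 to 6.37 FPKM after running, against 27.6 to 32.0 FPKM in WT libraries (limma adjusted p = 0.00487 and 0.00111). With no counts in the tables, the depth of each library is unknown. Per library, 10123 to 10544 genes reached 1 FPKM. The fast muscle genes Myh4, Actn3 and Tnnt3, which define the labelled tissue, summed to 26130 to 31598 FPKM in HDAC3-KO muscle and 25988 to 28065 FPKM in WT muscle at rest. After running they summed to 25409 to 27460 FPKM in HDAC3-KO muscle and 29854 to 31115 FPKM in WT muscle, without overlap, and the whole list of 8 fast muscle genes overlapped in both tables. In myeloid markers, WT library 2 at rest and HDAC3-KO library 3 after running stood apart, with sums over 5 genes of 468 and 312 FPKM, against 3.39 to 16.3 FPKM elsewhere. Results are therefore also given without these libraries. Without WT library 2 the rest table had 20 limma calls in place of 434, with 0 members, and without HDAC3-KO library 3 the running table had 95 in place of 337, also with 0 members. Calls fell whichever library was left out, to 20 to 292 at rest and to 70 to 103 after running. S100a8 and S100a9 made up most of both sums. Of the other 3 genes of the list, Ptprc was also highest of its table in both libraries (2.25 and 2.23 FPKM, next 1.70 and 1.49 FPKM). Cd68 and Adgre1 were highest in other libraries. Cd68, a lysosomal protein of macrophages, measured 5.27, 2.60 and 4.91 FPKM in HDAC3-KO libraries after running, against 1.49, 0.746 and 0.428 FPKM in WT libraries, and it rose by 1.48 on the log2 scale (SE 0.28, limma adjusted p = 0.0372). This call was lost without HDAC3-KO library 1 (0.0991) or 3 (0.0942) or WT library 2 (0.109) or 3 (0.097). Ptprc and Adgre1, which were not tested, were 2.42 and 2.66 times as high in HDAC3-KO after running, also with every HDAC3-KO library above every WT library. At rest the genotypes overlapped in all 3 of these genes.

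FPKM are per length, so levels may be compared between genes. Me1 was the most abundant of the 10 in each of the 4 groups and lay apart from the next gene, Acacb, in each. Acacb, Scd1 and Thrsp followed in that order of group means in each group. In both WT groups these 3 did not overlap one another, whereas in both HDAC3-KO groups Acacb overlapped Scd1 and Scd1 overlapped Thrsp. Acaca, Srebf1, Acly and Scd2 had group means between 3.20 FPKM (Srebf1, WT after running) and 6.67 FPKM (Acaca, HDAC3-KO at rest), and neighbours in that range overlapped except Srebf1 and Acly in HDAC3-KO muscle at rest and Scd2 and Acaca in WT muscle at rest. Thrsp lay apart from the gene below it in 3 of the 4 groups and overlapped Srebf1 in WT muscle at rest. Fasn ranked ninth in each group with means of 1.25 to 2.16 FPKM, and Elovl6 ranked last with means of 0.253 to 0.304 FPKM. The rest and running tables were treated as normalized separately, since the settings are not given. Running was therefore not tested against rest, and levels set side by side across the tables are a description.

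HDAC3-KO muscle carried more Me1 and Thrsp transcript than WT muscle at rest, by 1.50 and 2.25 times, and Acaca was 1.64 times as high without passing the test. The same 3 genes lay above WT in every HDAC3-KO library after running too, by 1.38, 1.92 and 1.64 times. The other tested members did not pass in either table. Passing means an adjusted p at or under 0.05 in limma, fitted to log2(FPKM + 1) and adjusted by Benjamini-Hochberg. The fit and the adjustment ran over the genes of a table that the authors had tested, not over all its rows. At rest 2 of the 9 tested members passed, both higher in HDAC3-KO, where 4.72% of 9204 tested genes passed in either direction and 3.04% were higher in HDAC3-KO. After running limma called 0 of 9, where 3.73% of 9037 genes were called and 1.58% were higher in HDAC3-KO. At an unadjusted limma p under 0.05 there were 3 of the 9 members at rest, beside 1975 of the 9204 genes. After running there were 6 of the 9, beside 1797 of the 9037 genes. The members' median log2 difference, HDAC3-KO minus WT, was 0.19 at rest beside 0.01 for all tested genes, and 0.45 after running beside -0.00 for all.

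**Figure D1:**
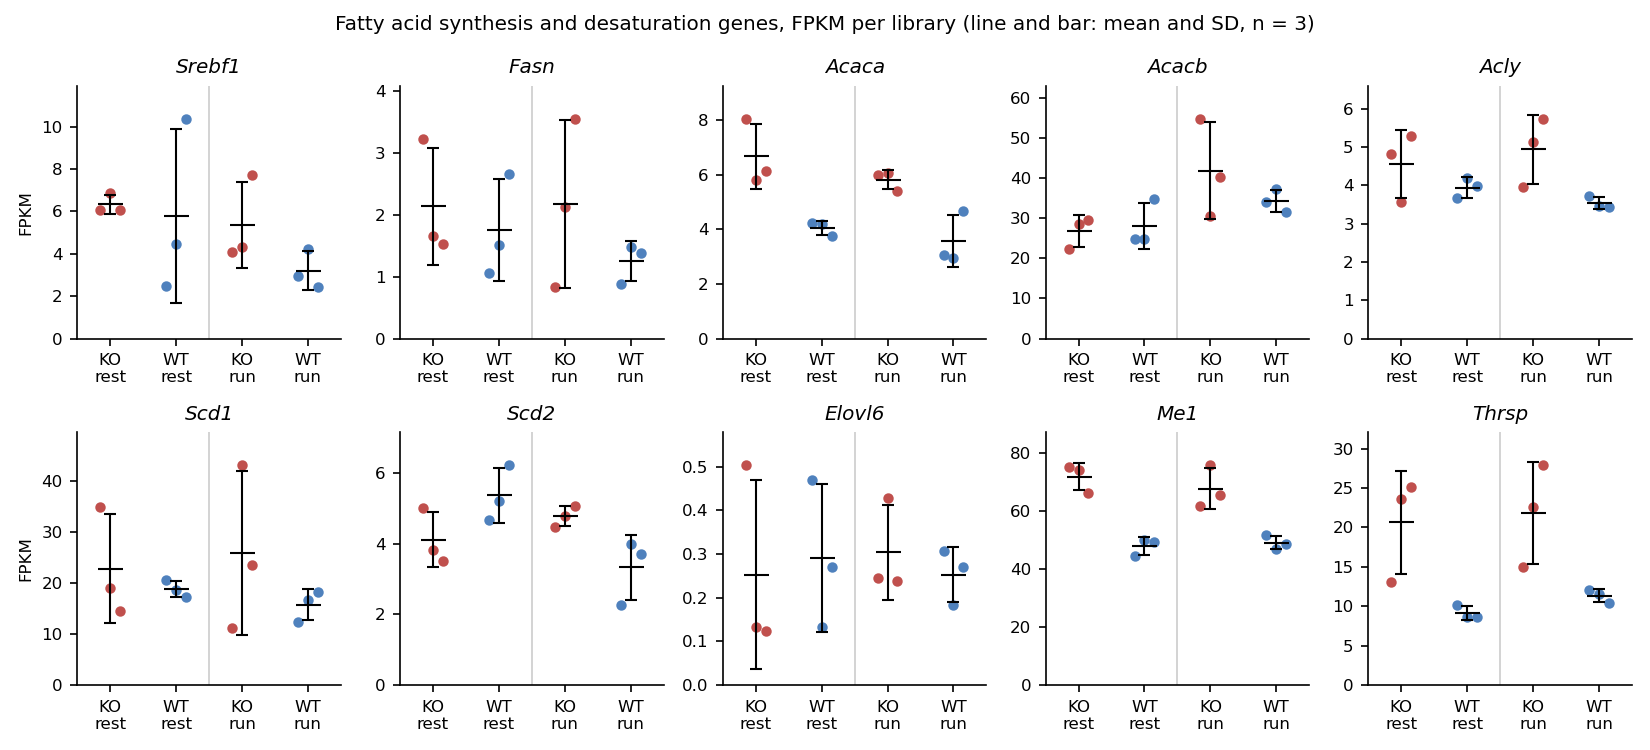
FPKM of the 10 genes (vertical axes) in each library, with HDAC3-KO in red left of WT in blue, at rest on the left of each panel and after running on the right. Points are libraries, and lines and bars are means and SD of 3. In the Me1, Thrsp and Acaca panels the red points lie above the blue points of the same condition, and in the Scd1 and Fasn panels single HDAC3-KO libraries stand high, such as 43.0 FPKM of Scd1 after running.

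The start-site regions of Thrsp, Me1 and Acaca are shown because in these members every HDAC3-KO library lay above every WT library in both tables. RefSeq windows of 250 bases before and 50 bases from the transcript start (build GRCm38.p6, not the mm9 build of the expression tables) existed for 8 of the 10 members, in 11 windows. Scd1 and Scd2 had no window in the table. The sequences read 5′ to 3′ on the gene's own strand, and capitals mark the motifs found. Thrsp is given by chr7:97417501-97417800 (minus strand), Me1 by chr9:86695865-86696164 (upstream start) and chr9:86687228-86687527 (downstream start), both minus strand, and Acaca by chr11:84195188-84195487 (plus strand).
Thrsp: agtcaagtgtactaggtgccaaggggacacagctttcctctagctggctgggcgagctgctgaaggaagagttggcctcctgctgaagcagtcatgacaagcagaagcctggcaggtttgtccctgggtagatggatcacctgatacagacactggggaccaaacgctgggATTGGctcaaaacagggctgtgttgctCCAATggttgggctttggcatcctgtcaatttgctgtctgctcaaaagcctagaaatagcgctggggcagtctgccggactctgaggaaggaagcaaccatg
Me1 (upstream start): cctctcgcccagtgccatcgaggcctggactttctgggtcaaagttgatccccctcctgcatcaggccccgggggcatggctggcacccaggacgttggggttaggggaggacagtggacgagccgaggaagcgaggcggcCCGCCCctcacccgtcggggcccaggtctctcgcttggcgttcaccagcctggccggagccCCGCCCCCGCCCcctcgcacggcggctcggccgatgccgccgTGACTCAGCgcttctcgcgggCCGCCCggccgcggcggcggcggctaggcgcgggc
Me1 (downstream start): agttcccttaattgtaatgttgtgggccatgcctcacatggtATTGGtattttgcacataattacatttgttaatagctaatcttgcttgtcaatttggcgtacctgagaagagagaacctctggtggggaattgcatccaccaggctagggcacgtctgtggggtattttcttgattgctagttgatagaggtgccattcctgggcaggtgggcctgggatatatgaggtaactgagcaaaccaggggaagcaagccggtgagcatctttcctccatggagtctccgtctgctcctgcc
Acaca: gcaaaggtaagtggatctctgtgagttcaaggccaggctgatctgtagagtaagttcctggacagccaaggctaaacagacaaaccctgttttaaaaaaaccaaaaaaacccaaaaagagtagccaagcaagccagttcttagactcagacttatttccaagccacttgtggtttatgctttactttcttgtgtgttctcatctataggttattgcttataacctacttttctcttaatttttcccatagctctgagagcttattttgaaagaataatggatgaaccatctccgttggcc

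Each window was searched on both strands for 6 motifs. The capitals in the Thrsp window are CCAAT boxes (CCAAT, or ATTGG on the other strand) at -79 and -52 from the start, and the downstream Me1 window had 1 at -208. The upstream Me1 window held GC boxes (GGGCGG, or CCGCCC) at -109, -48, -42 and +16, the middle pair abutting in one run of capitals. It was also the sole member window with the core of an antioxidant response element (TGACNNNGC), which began at -6. The Acaca window held none of the motifs searched. The bases just before its listed start read tttcccatag, letters like the end of an intron, so this window may not be a promoter. Whether muscle uses this start was not checked, and the window stays in the counts below. Among the 8 members with a window, 6 had a CCAAT box, 3 a GC box, 3 a nuclear receptor half-site (AGGTCA) and 1 the antioxidant response core. Counted by window, as the background was, these were 7, 4, 3 and 1 of 11, against 37.4%, 35.6%, 16.3% and 12.4% of 32817 windows. The sterol regulatory element core (TCACNCCAC) and the E-box CACGTG, letters bound by SREBP and by E-box factors such as USF, were in 0 of the 8 members' windows and in 1.24% and 7.15% of all windows. Matches are letters in a window of fixed length and say nothing of binding.

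Me1 makes NADPH for the synthase and for other reductive reactions. At rest Me1 measured 75.0, 74.1 and 66.4 FPKM in HDAC3-KO libraries, against 44.4, 49.9 and 49.4 FPKM in WT libraries. Each HDAC3-KO library exceeded each WT library, with means of 71.8 ± 4.75 FPKM in HDAC3-KO muscle and 47.9 ± 3.06 FPKM in WT muscle (SD, n = 3 each). Me1 rose by 0.57 on the log2(FPKM + 1) scale (SE 0.10, limma adjusted p = 0.0245), and the authors' deposited table gave q = 0.00119. The call held without WT library 3 (adjusted p = 0.0441) and was lost when any 1 of the other 5 libraries was left out: 0.0843, 0.0729 and 0.0716 without HDAC3-KO libraries 1, 2 and 3, and 0.0547 and 0.0936 without WT libraries 1 and 2. The log2 difference itself stayed between 0.52 and 0.63 in these fits. In bulk muscle, more cells of a type and more RNA per cell cannot be told apart, nor can fewer cells and less RNA.

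After running Me1 measured 61.9, 75.7 and 65.6 FPKM in HDAC3-KO libraries, against 51.6, 47.1 and 48.5 FPKM in WT libraries. The groups again did not overlap, and the WT libraries lay within a narrow range. The log2 difference was 0.45 (SE 0.12), with a limma adjusted p = 0.0791 and q = 0.0626 in the authors' deposited table, so Me1 did not pass after running. One fit over all 12 libraries did call it (limma adjusted p = 0.0198). The difference between the 2 knockout effects, running minus rest, was -0.12 with a 95% interval of -0.43 to 0.19.

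Thrsp showed the largest ratio between the genotypes among the members. At rest it also had the largest SD between HDAC3-KO libraries of the 3 non-overlapping genes (6.55 FPKM), which it did not after running. At rest it measured 13.1, 23.6 and 25.2 FPKM in HDAC3-KO libraries, against 10.2, 8.58 and 8.69 FPKM in WT libraries. HDAC3-KO library 1 lay nearer to the WT libraries than to the other HDAC3-KO libraries, yet above all WT values. Thrsp rose by 1.04 on the log2 scale (SE 0.23), with a limma adjusted p = 0.0499, at the edge of the threshold, and q = 0.00119 in the authors' deposited table. Without HDAC3-KO library 1 the limma adjusted p was 0.0189. The call was lost when any 1 of the others was left out: 0.129 and 0.153 without HDAC3-KO libraries 2 and 3, and 0.0823, 0.169 and 0.104 without WT libraries 1, 2 and 3. It was also lost with a pseudocount of 5 (0.0551), with genes filtered at a mean of 1 FPKM (0.0582), with rescaled libraries (0.053), without a variance trend (0.0595) and with no filter (0.268).

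After running Thrsp measured 15, 22.6 and 27.9 FPKM in HDAC3-KO libraries, against 12, 11.6 and 10.5 FPKM in WT libraries. All 3 HDAC3-KO libraries were above WT, with library 1 lowest among them. The log2 difference was 0.84 (SE 0.21, limma adjusted p = 0.0705), and q was 0.00132 in the authors' deposited table. Without HDAC3-KO library 1 Thrsp passed limma (adjusted p = 0.0288), and with a quality weight per library it did too (0.048). The difference between the knockout effects was -0.20 with a 95% interval of -0.94 to 0.54.

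Acaca, the cytosolic carboxylase that feeds fatty acid synthase, measured 8.05, 5.82 and 6.15 FPKM in HDAC3-KO libraries at rest, against 4.21, 4.20 and 3.76 FPKM in WT libraries. After running it measured 6.00, 6.07 and 5.41 FPKM in HDAC3-KO libraries, against 3.07, 2.95 and 4.66 FPKM in WT libraries. The genotypes did not overlap in either condition. The log2 differences were 0.59 (SE 0.14, limma adjusted p = 0.0595) at rest and 0.60 (SE 0.17, limma adjusted p = 0.102) after running, and their difference was 0.01 with a 95% interval of -0.47 to 0.49. The authors' deposited table called Acaca in both, with q = 0.00119 at rest and q = 0.00132 after running. One limma fit over all 12 libraries, which pools the spread, also called it in both (adjusted p = 0.039 in each), and quality weights per library called it at rest (0.0166).

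Acacb, the form tied to control of fatty acid oxidation in muscle, was several times as abundant as Acaca. At rest it measured 22.3, 28.5 and 29.6 FPKM in HDAC3-KO libraries, against 24.8, 24.8 and 34.8 FPKM in WT libraries, and the groups overlapped. After running HDAC3-KO libraries had 54.8, 30.6 and 40.4 FPKM, against 34.0, 37.3 and 31.7 FPKM in WT libraries. These overlapped too, with HDAC3-KO library 1 the highest of the table. The log2 differences were -0.06 (95% interval -0.45 to 0.33, limma adjusted p = 0.877) at rest and 0.25 (95% interval -0.21 to 0.70, limma adjusted p = 0.535) after running. The ratio of Acaca to Acacb within a library does not depend on how the table was scaled. At rest it was 0.360, 0.204 and 0.208 in HDAC3-KO libraries, against 0.170, 0.169 and 0.108 in WT libraries, without overlap. After running it was 0.109, 0.198 and 0.134 in HDAC3-KO libraries, against 0.0903, 0.0791 and 0.147 in WT libraries, with overlap. These ratios are given as descriptions, and no test was run on them.

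**Figure D2:**
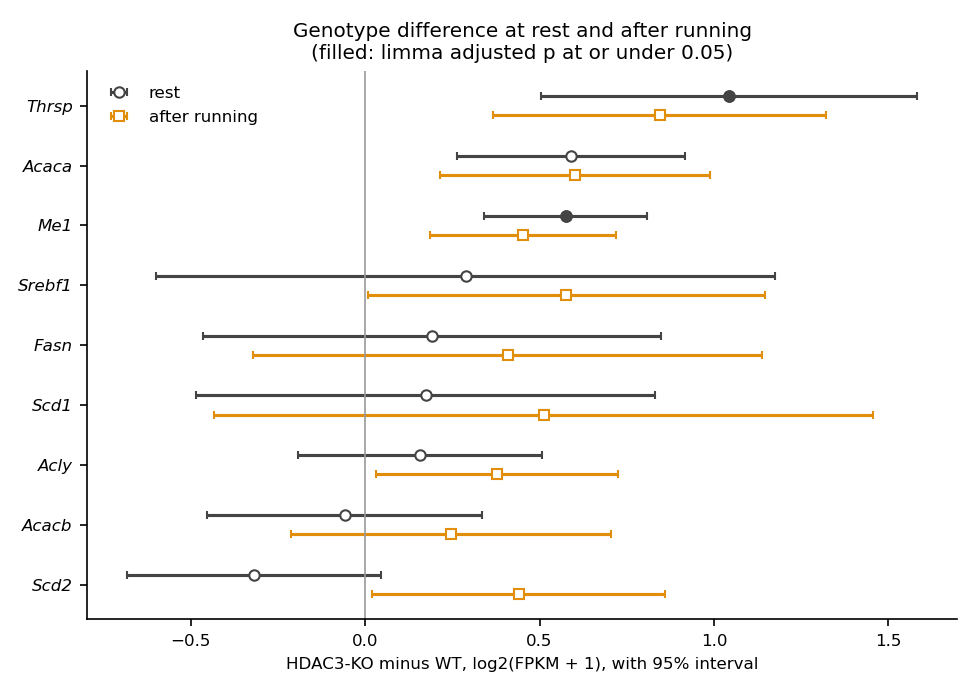
Log2 difference in FPKM + 1, HDAC3-KO minus WT (horizontal axis), of the 9 tested members (rows), at rest in grey circles and after running in orange squares, with 95% intervals. Filled symbols passed limma: Thrsp at 1.04 and Me1 at 0.57, both at rest. The 2 differences lie on opposite sides of 0 for Scd2 (-0.32 and 0.44), with little overlap of the intervals, and for Acacb (-0.06 and 0.25), with wide overlap.

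On the log2(FPKM + 1) scale, citrate cleavage and the synthase itself gave smaller differences than Me1, Thrsp and Acaca in both tables. Acly measured 4.82, 3.56 and 5.27 FPKM in HDAC3-KO libraries at rest, against 3.66, 4.18 and 3.98 FPKM in WT libraries, and the groups overlapped (log2 difference 0.16, limma adjusted p = 0.597). After running Acly was 3.96, 5.14 and 5.73 FPKM in HDAC3-KO libraries, against 3.71, 3.47 and 3.43 FPKM in WT libraries. The groups did not overlap after running, but the difference of 0.38 missed the threshold (SE 0.15, limma adjusted p = 0.216, authors' deposited q = 0.105). Fasn, the final enzyme of palmitate synthesis, was low throughout. It measured 3.22, 1.65 and 1.53 FPKM in HDAC3-KO libraries at rest, against 1.06, 1.51 and 2.66 FPKM in WT libraries, with overlap (log2 difference 0.19, 95% interval -0.46 to 0.85, limma adjusted p = 0.744). After running it measured 0.834, 2.12 and 3.54 FPKM in HDAC3-KO libraries, against 0.881, 1.48 and 1.38 FPKM in WT libraries. As a ratio of means Fasn was 1.22 times as high in HDAC3-KO muscle at rest, below Acaca and Me1. After running it was 1.74 times as high, above Acaca (1.64) and Me1 (1.38), and the ratio of Acly was also above that of Me1. The lowest and the highest Fasn value after running were both from HDAC3-KO muscle. The authors' deposited table called this difference (q = 0.0076), and limma did not (log2 difference 0.41, SE 0.32, adjusted p = 0.514).

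Among the desaturases, Scd1 was the more abundant and the more variable. Reads of these paralogs, which lie in a cluster of similar genes, may have been divided between them in ways the tables do not show. At rest Scd1 measured 34.9, 19.1 and 14.4 FPKM in HDAC3-KO libraries, against 20.5, 18.7 and 17.3 FPKM in WT libraries. After running it measured 11.1, 43.0 and 23.5 FPKM in HDAC3-KO libraries, against 12.3, 16.6 and 18.2 FPKM in WT libraries. In each condition HDAC3-KO muscle held both the highest and the lowest library, so the groups overlapped. The log2 differences were 0.17 (SE 0.28, limma adjusted p = 0.774) at rest and 0.51 (SE 0.41, limma adjusted p = 0.53) after running. The second was called in the authors' deposited table (q = 0.00518). Without HDAC3-KO library 2 it was 0.06 in limma, and without HDAC3-KO library 1 the rest difference was -0.17.

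Scd2 was lower than Scd1 in each library, and its HDAC3-KO mean lay on opposite sides of the WT mean in the 2 conditions, with neither difference past the test. At rest it measured 5.01, 3.83 and 3.51 FPKM in HDAC3-KO libraries, against 4.67, 5.22 and 6.21 FPKM in WT libraries, and the groups overlapped at a single pair (log2 difference -0.32, SE 0.16, limma adjusted p = 0.291). After running it measured 4.48, 4.79 and 5.05 FPKM in HDAC3-KO libraries, against 2.27, 4.00 and 3.71 FPKM in WT libraries, without overlap (log2 difference 0.44, SE 0.18, limma adjusted p = 0.233). The ratio of Scd1 to Scd2 within a library ran between 4.11 and 6.97 in HDAC3-KO libraries and between 2.78 and 4.40 in WT libraries at rest. After running it ran between 2.48 and 8.99 in HDAC3-KO libraries and between 4.16 and 5.43 in WT libraries. The genotypes overlapped in both conditions. Elovl6, which acts between the synthase and the desaturases, was listed at 0.503, 0.133 and 0.123 FPKM in HDAC3-KO libraries at rest, against 0.471, 0.133 and 0.271 FPKM in WT libraries. After running it was at 0.246, 0.429 and 0.237 FPKM in HDAC3-KO libraries, against 0.307, 0.182 and 0.269 FPKM in WT libraries. The groups overlapped, and no test was made at these levels.

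Srebf1, whose gene row joins the SREBP-1a and SREBP-1c transcripts, varied most among WT libraries at rest. It measured 6.04, 6.87 and 6.07 FPKM in HDAC3-KO libraries, against 2.47, 4.46 and 10.4 FPKM in WT libraries. The HDAC3-KO libraries lay close together inside the WT range, and WT library 3 was the highest of the table. After running Srebf1 measured 4.07, 4.30 and 7.71 FPKM in HDAC3-KO libraries, against 2.95, 4.22 and 2.42 FPKM in WT libraries, with a small overlap. The log2 differences were 0.29 (SE 0.38, limma adjusted p = 0.713) at rest and 0.58 (SE 0.25, limma adjusted p = 0.246, authors' deposited q = 0.0896) after running. Leaving out single libraries moved the rest difference between -0.11 (without WT library 1) and 0.75 (without WT library 3), without a call in any of the 6 fits.

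Counted by the authors' own test, 3 members were higher in HDAC3-KO at rest (Acaca, Me1 and Thrsp), where the deposited table called 10.8% of tested genes, 5.9% higher in HDAC3-KO. After running it called 4 members (Acaca, Thrsp, Fasn and Scd1), where 9.57% of genes were called and 4.66% were higher in HDAC3-KO. Counted by libraries alone, 3 of 9 members had every HDAC3-KO library above every WT library at rest, as did 15.6% of all tested genes. After running there were 5 of 9 (Acaca, Acly, Me1, Scd2 and Thrsp), and 12.4% of all tested genes. Acaca, Me1 and Thrsp did so in both tables, as did 6.36% of the 8854 genes tested in both. All 9 tested members had a positive log2 difference after running, from 0.25 for Acacb to 0.84 for Thrsp. HDAC3-KO library 3, which stood apart in myeloid markers, was the highest of that table in Fasn, Srebf1, Thrsp, Acly and Scd2. Without it the log2 differences after running were 0.10 for Fasn, 0.33 for Srebf1, 0.65 for Thrsp, 0.28 for Acly and 0.41 for Scd2. At rest, without WT library 2, those of Me1, Thrsp and Acaca were 0.61, 1.00 and 0.61. No member's genotype difference was shown to depend on running: limma called 0 of the 8854 genes (0.0%), with 433 at an unadjusted p under 0.05, Scd2 among them.

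The members varied together in parts. Over the 12 libraries, with log2 values centred within each table, Acaca followed Me1 (Pearson r = 0.851), Me1 followed Thrsp (r = 0.809) and Srebf1 followed Fasn (r = 0.721), while Acacb ran against Scd1 (r = -0.62). The points share the genotype split and the scaling of their tables, so these are descriptions. The 3 tested genes most like Me1 over the same 12 libraries were Pla2g16, a phospholipase of fat tissue (r = 0.972), Tfam, the mitochondrial DNA packaging factor (r = 0.972), and the antisense transcript Srrm4os (r = 0.968), whose strand was not checked. Among those most like Thrsp were Oaz2, an ornithine decarboxylase antizyme (r = 0.972), and Nsmce4a (r = 0.948). These 5 genes were picked for likeness to Me1 and Thrsp over the same 12 libraries, so a shared genotype split largely follows from the choice. In each, every HDAC3-KO library lay above every WT library at rest, as in 15.6% of all tested genes.

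Genes that control SREBP-1c and ChREBP, the sterol- and carbohydrate-responsive factors of lipogenesis, were followed as a list. Of 14 listed, 13 were tested in each table, and limma called 0 of them in either. At an unadjusted p under 0.05 there were 3 at rest and 2 after running, beside 1975 of 9204 and 1797 of 9037 tested genes. The authors' deposited table called 1 higher and 1 lower in each. The median log2 difference was -0.09 at rest and 0.15 after running, beside 0.01 and -0.00 for all tested genes. The most abundant were Rxra, the partner of many nuclear receptors, and Mid1ip1, the paralog of Thrsp and activator of acetyl-CoA carboxylase. Rxra differed by 0.07 at rest (95% interval -0.30 to 0.45) and by 0.20 after running (95% interval -0.08 to 0.49). Mid1ip1 measured 17.5, 32.9 and 31.2 FPKM in HDAC3-KO libraries at rest, against 8.54, 8.30 and 19.5 FPKM in WT libraries. WT library 3 lay above HDAC3-KO library 1, and the log2 difference of 1.16 did not pass (SE 0.35, limma adjusted p = 0.115, authors' deposited q = 0.00119). After running it measured 15, 10.4 and 25.0 FPKM in HDAC3-KO libraries, against 8.58, 13.1 and 13.7 FPKM in WT libraries, with overlap (log2 difference 0.42, limma adjusted p = 0.473, deposited q = 0.0611).

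The remaining calls of the authors in this list were named after their values were seen. Mlxipl, which encodes ChREBP, averaged 5.06 ± 0.704 FPKM in HDAC3-KO muscle and 8.25 ± 1.82 FPKM in WT muscle at rest (SD, n = 3 each, deposited q = 0.00668). After running it averaged 4.51 ± 1.31 FPKM in HDAC3-KO muscle and 6.92 ± 1.06 FPKM in WT muscle (deposited q = 0.0217). In limma the log2 differences at rest and after running were -0.60 and -0.54 with adjusted p of 0.105 and 0.174. Insig1, which retains SREBP precursors in the endoplasmic reticulum, measured 10.2, 9.20 and 8.79 FPKM in HDAC3-KO libraries after running, against 6.68, 4.54 and 6.17 FPKM in WT libraries. The groups did not overlap (log2 difference 0.63, SE 0.15, limma adjusted p = 0.0703, deposited q = 0.0092), and at rest they did (log2 difference 0.10, limma adjusted p = 0.77).

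Other enzymes of elongation and desaturation, which act past palmitate, gave few calls. Of 19 listed genes of elongation and desaturation other than the members, 10 were tested at rest, with 0 higher and 1 lower, and 9 after running, with 0 higher and 2 lower. Over all tested genes 1.67% were called lower at rest and 2.15% after running. The gene lower in both was Hacd1, the muscle-enriched 3-hydroxyacyl-CoA dehydratase that acts in the elongation cycle of very long chain fatty acids. Hacd1 measured 39.1, 30.5 and 31.8 FPKM in HDAC3-KO libraries at rest, against 67.0, 75.5 and 69.1 FPKM in WT libraries. After running it measured 26.6, 30.9 and 27.0 FPKM in HDAC3-KO libraries, against 56.9, 57.9 and 64.0 FPKM in WT libraries. The groups lay far apart in both conditions, with no overlap. Hacd1 fell by 1.05 at rest (SE 0.12, limma adjusted p = 0.0107) and by 1.06 after running (SE 0.11, limma adjusted p = 0.00561). The rest call was lost without HDAC3-KO library 3 (0.0507) or WT library 2 (0.0626), and the running call held in all 6 such fits.

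Tecr, the reductase that ends the same cycle, measured 81.6, 82.9 and 95.4 FPKM in HDAC3-KO libraries after running, against 136, 124 and 135 FPKM in WT libraries. The groups did not overlap, and Tecr fell by 0.60 (SE 0.11, limma adjusted p = 0.0336). This call was lost when any 1 library was left out, with adjusted p of 0.0818, 0.103 and 0.0551 without HDAC3-KO libraries 1, 2 and 3 and of 0.0999, 0.0886 and 0.0999 without WT libraries 1, 2 and 3. At rest Tecr averaged 84.5 ± 6.58 FPKM in HDAC3-KO muscle and 108 ± 17.8 FPKM in WT muscle (SD, n = 3 each), the groups overlapped, and the difference of -0.34 did not pass (limma adjusted p = 0.224). Not all enzymes of this cycle were lower. Hsd17b12, its ketoacyl-CoA reductase, was 1.34 times as high in HDAC3-KO muscle at rest and 1.55 times as high after running, with every HDAC3-KO library above every WT library in both, and passed in neither (limma adjusted p = 0.352 and 0.215). It was named after its values were seen.

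**Figure D3:**
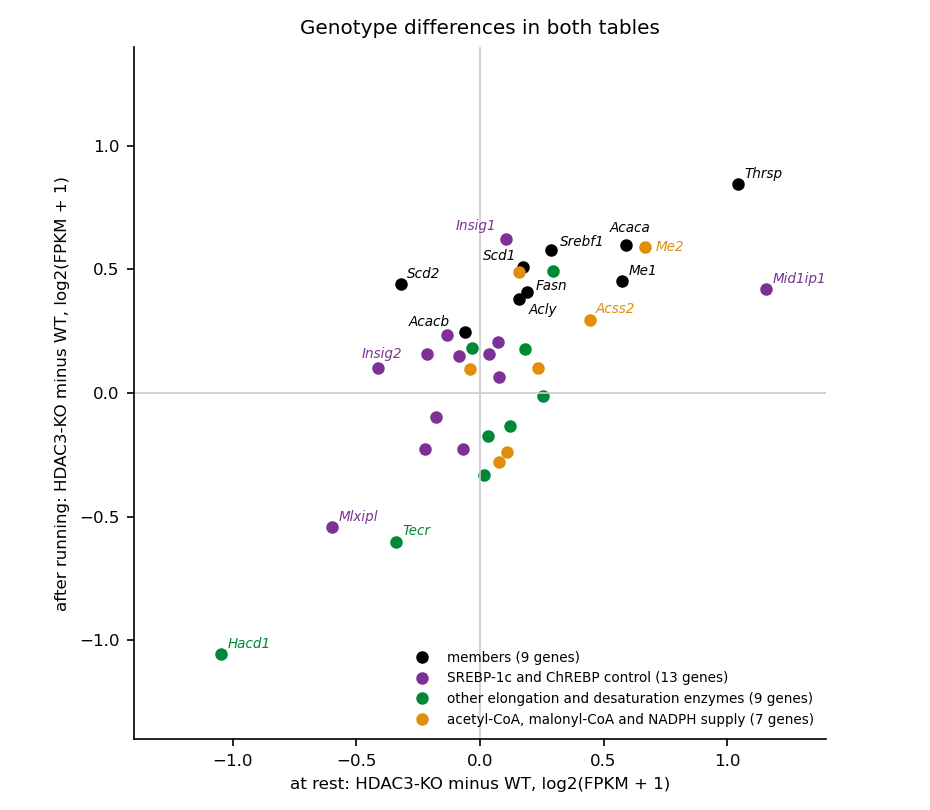
Log2 differences, HDAC3-KO minus WT, at rest (horizontal axis) and after running (vertical axis) for the 9 tested members in black and the genes of 3 further lists in colour, 1 point per gene tested in both tables. Labels name the members and the other genes farthest from 0. Thrsp lies at the upper right (1.04 and 0.84) and Hacd1 at the lower left (-1.05 and -1.06). The 2 axes come from separate libraries.

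Genes that supply acetyl-CoA, malonyl-CoA balance and NADPH beside the members gave 1 call. Of 10 listed, 7 were tested at rest with 1 higher and 0 lower, beside the 3.04% of all tested genes called higher there. Limma called 0 of 8 after running, with 2 at an unadjusted p under 0.05, beside 1797 of 9037 tested genes. The authors' deposited table called 2 higher at rest, Me2 (q = 0.0279) and Acss2 (q = 0.0252), and 0 after running. Acss2, an acetyl-CoA synthetase named after its values were seen, was 1.41 times as high in HDAC3-KO muscle at rest with every library above WT, and did not pass limma (adjusted p = 0.199). The gene called was Me2, the mitochondrial malic enzyme. It measured 3.01, 2.98 and 2.94 FPKM in HDAC3-KO libraries at rest, against 1.35, 1.45 and 1.74 FPKM in WT libraries. The HDAC3-KO libraries were almost equal and all above WT, and Me2 rose by 0.67 (SE 0.14, limma adjusted p = 0.0384). The call was lost when any 1 library was left out, with adjusted p of 0.103, 0.101 and 0.125 without HDAC3-KO libraries 1, 2 and 3 and of 0.0829, 0.134 and 0.0591 without WT libraries 1, 2 and 3. After running Me2 measured 2.44, 2.90 and 2.52 FPKM in HDAC3-KO libraries, against 1.67, 1.60 and 0.985 FPKM in WT libraries, without overlap (log2 difference 0.59, limma adjusted p = 0.112).

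Adipocytes express most of the members strongly, so their markers are given beside these results. The summed level of 5 defining adipocyte genes (Adipoq, Plin1, Cidec, Lep and Retn) was 13.7, 4.04 and 5.29 FPKM in HDAC3-KO libraries at rest, against 7.08, 12 and 7.04 FPKM in WT libraries. After running it was 5.44, 12 and 10.9 FPKM in HDAC3-KO libraries, against 3.69, 11.2 and 13.4 FPKM in WT libraries. The genotypes overlapped in both. Over the whole list of 11 genes, in which Fabp4, shared with capillary endothelium, made up most of the sum, the range was 328 to 442 FPKM in HDAC3-KO muscle and 327 to 487 FPKM in WT muscle at rest. After running the range was 330 to 644 FPKM in HDAC3-KO muscle and 353 to 607 FPKM in WT muscle. None of the 5 defining genes was at 0 in all libraries of a table, and Ucp1 of the whole list was. Of the 11, 4 were tested in each table, and limma called 0 of 4 in each, with 0 at an unadjusted p under 0.05 and 0 called in the authors' deposited table.

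Within HDAC3-KO muscle, the libraries highest in Scd1, library 1 at rest and library 2 after running, were also the highest of their group in the defining adipocyte sum. After running HDAC3-KO library 1 was lowest in both, and the 3 WT libraries had one order in both. Other extremes did not match: at rest the lowest Scd1 in HDAC3-KO muscle was in library 3 and the lowest sum in library 2, and in WT muscle the highest Scd1 was in library 1 and the highest sum in library 2. For Thrsp, the lowest HDAC3-KO library at rest, 13.1 FPKM, had the highest adipocyte sum of that table, and the lowest after running, 15 FPKM, had the lowest sum of its group. The part of adipocyte RNA in these values was not tested. Me1 ran from 61.9 to 75.7 FPKM in HDAC3-KO libraries and from 44.4 to 51.6 FPKM in WT libraries of both tables.

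**Figure D4:**
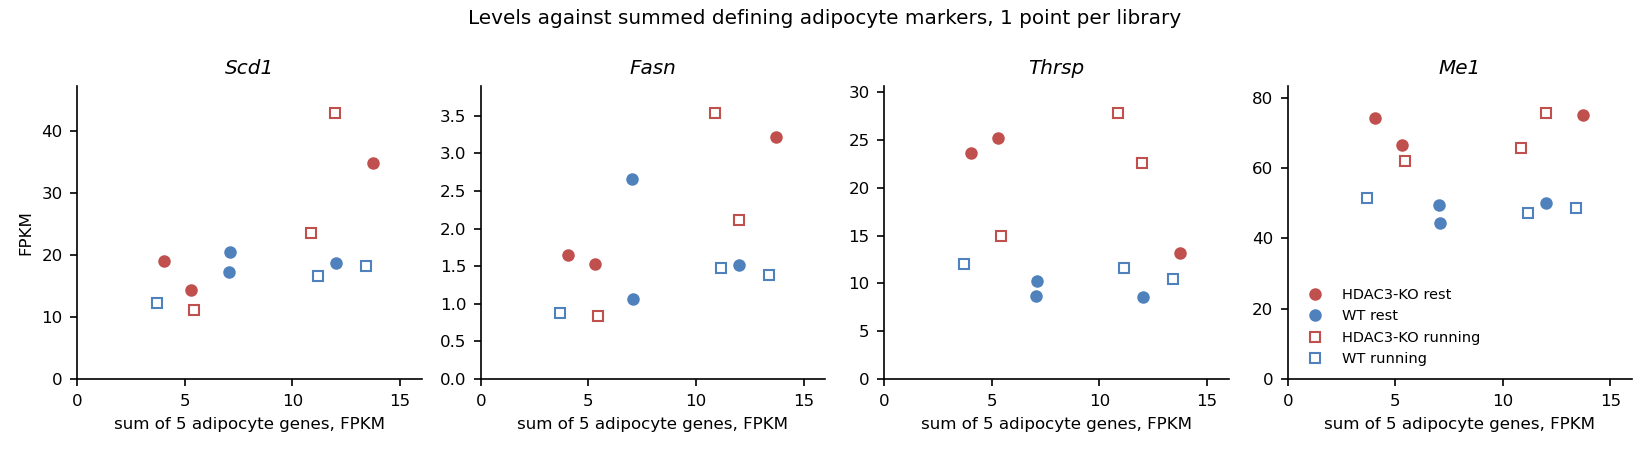
FPKM of Scd1, Fasn, Thrsp and Me1 (vertical axes) against the summed FPKM of 5 defining adipocyte genes (horizontal axes), 1 point per library, HDAC3-KO in red and WT in blue, filled at rest and open after running. Scd1 is highest at sums of 12 and 13.7 FPKM in HDAC3-KO muscle. In the Me1 panel the red points lie above the blue points of the same condition. Levels of the 2 tables were treated as normalized separately.

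Over 4 endothelial genes the sums overlapped, at 41.6 to 69.7 FPKM in HDAC3-KO libraries and 55.2 to 69.0 FPKM in WT libraries after running. Of the 5 myeloid genes, Cd68, Ptprc and Adgre1 were higher in every HDAC3-KO library after running, and S100a8 and S100a9 overlapped. Of all tested genes 12.4% had every HDAC3-KO library above every WT library there. The part of fast muscle, myeloid and endothelial RNA in the members' values was not tested.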

How the data were processed

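RNA-seq of 12 quadriceps libraries was deposited by the authors as 2 tables, 1 for rest and 1 for running as the tables' own names say, with FPKM per library, p-values and q-values for each gene. Per the submitters' processing notes TopHat2, Bowtie, Cuffdiff and HOMER were used with mm9. Versions, annotation, strand and normalization settings are not given in the sources used here. The deposited FPKM are scaled to transcript length and library size, and each table was treated as normalized alone. Rows the authors tested (deposited p under 1) were analysed: 9204 at rest and, of 9051 after running, 9037 with a usable gene name, since 27 names of that table had been turned into dates.

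Values were taken as log2(FPKM + 1) and tested with limma 3.58.1 (R 4.3.3), with a mean-variance trend, two-sided, 3 libraries against 3 within each table, and p-values were adjusted by Benjamini-Hochberg over all genes tested. A fold change on this scale understates that of low genes. The knockout effects of the tables were compared by an interaction contrast over the 12 libraries and 8854 shared genes. The code was tested on simulated data. Alternatives were other pseudocounts (0.1 and 5), filters, scaling, variance models, a replicate block, 1 fit over 12 libraries, each library left out, and the deposited q. Depth is unknown without counts, so no counting intervals are given. Named genes are Hdac3, the 10 members, called genes of the 3 pathway lists or else their 2 most abundant, and the 3 genes most like each called member. One gene of the last kind and one list of cell type markers are not reported here. Members and lists were chosen with earlier results of these data known. Promoter windows came from RefSeq (GRCm38.p6), matched by symbol. The 4 GRO-seq libraries were not analysed here.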

Additional observations from a re-analysis of the deposited data

Results flagged for a closer look

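In Scd2, every HDAC3-KO library lay on one side of the WT mean at rest and every one on the other side after running. Its 3 HDAC3-KO libraries at rest, at 5.01, 3.83 and 3.51 FPKM, all lay below the WT mean of 5.37 FPKM, and the first lay above the lowest WT library. After running its 3 HDAC3-KO libraries, at 4.48, 4.79 and 5.05 FPKM, all lay above the WT mean of 3.32 FPKM. The knockout effect after running minus that at rest was 0.76 on the log2(FPKM + 1) scale (SE 0.24, 95% interval 0.22 to 1.29). The interaction contrast in limma gave an adjusted p = 0.923 over the 8854 genes tested (0.00935 unadjusted), so the difference did not pass. Leaving out each library in turn kept it between 0.57 and 0.88.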

How the results depend on the processing

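With 3 libraries a group, single genes near the threshold turn on small changes in the fit. In place of 434 calls at rest, limma gave 98 with no filter, 1736 with a quality weight per library, 672 in 1 fit over 12 libraries and 20 to 292 with 1 library left out, and the deposited q gave 998. In place of 337 after running there were 53 with no filter, 586 in 1 fit and 70 to 103 with 1 library left out, and 865 by the deposited q. Members called at rest numbered 1 in place of 2 with a pseudocount of 5, a mean filter, rescaled libraries or no variance trend, 0 with no filter, 0 to 1 with 1 library left out, and 3 (with Acaca) with quality weights, in 1 fit and by the deposited q. After running they numbered 1 in place of 0 with quality weights, 2 in 1 fit, 4 by the deposited q, and 0 to 1 with 1 library left out. The interaction had 8 calls in place of 0 with no filter and 0 to 1 with 1 library left out, with 0 members throughout. The absence of a filter adds genes to the adjustment and to the variance trend, and leaving out a library removes samples. Why the counts moved was not tested for any of these settings.

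Same-numbered libraries of the genotypes did not deviate together (correlations of -0.00, 0.05 and 0.05 at rest and of 0.03, -0.33 and -0.18 after running). With 3 libraries a group such correlations cannot settle whether the numbers pair them, and the main fits used no pairing. With a replicate block there were 52 calls at rest and 170 after running, and 0 members at rest. Signs turned for Acaca in the interaction (-0.017 with a pseudocount of 5, and -0.083 to 0.18 with 1 library left out) and for Acacb at rest (0.10 with quality weights, and -0.14 to 0.10 with 1 library left out). With 1 library left out they also turned at rest for Srebf1 (-0.11 to 0.75), Fasn (-0.043 to 0.42) and Scd1 (-0.17 to 0.44), and in the interaction for Srebf1 (-0.17 to 0.68), Fasn (-0.092 to 0.56), Scd1 (-0.11 to 0.82) and Thrsp (-0.48 to 0.036). None of these passed limma. With no filter and with the replicate block the call was also lost for Hacd1 at rest (adjusted p = 0.0603 and 0.0534), Me2 at rest (0.0946 and 0.103) and Tecr after running (0.117 and 0.0829). Of 288 alternatives over the tested members and both tables, 253 kept direction and call, 11 gained a call, 18 lost one and 6 changed sign. For members not called, keeping means staying uncalled. All 18 losses fell on the 2 calls: Me1 at rest lost its call in 7 alternatives and kept it in 9, and Thrsp at rest lost it in 11 and kept it in 5.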
